A study of Homo sapiens with 6 samples.

Results

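The 40 genes described here encode nucleolar ribosome biogenesis factors and RNA polymerase I (Pol I) proteins. They were chosen by name, as rRNA processing, small nucleolar ribonucleoprotein (snoRNP) and Pol I genes. No cut on a measured value was used, but earlier results of these data were known when they were chosen. Each symbol matched 1 Ensembl identifier among the 58243 that were counted, and all 40 were among the 23884 genes that passed the low-count filter and were tested. The comparison asks how reads on their exons differed between cells that overexpress PRL3 and control cells. It was made since the nucleolar RNA helicase DDX21 is a partner of PRL3.

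The 6 libraries hold nascent RNA of A375, a human melanoma cell line, captured by 4sU-seq. Counts per gene are of reads on exons. The authors turned to intronic reads to keep to nascent transcripts, because of splicing during transcription and possible carried-over mRNA. Exon counts may hold spliced mRNA, and its part in the results was not tested. The 3 EV libraries (B1, B2 and B3) came from cells stably transfected with the empty vector, and the 3 PRL3 libraries (B9, B10 and B11) from cells stably transfected with HA-tagged PRL3, a protein tyrosine phosphatase encoded by PTP4A3. Transfected cells were kept in hygromycin at 100 µg/ml, both groups were given 500 µM 4-thiouridine (4sU) for 20 min, and ribosomal RNA was depleted before stranded libraries were made. The sources used here do not say whether each line was 1 clone or a pool, or whether the 3 libraries of a group came from separate cultures, so the p-values measure the spread between these libraries, which may be technical.

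Ribosomes are assembled in the nucleolus, where Pol I transcribes the long precursor of most ribosomal RNA. Box C/D and box H/ACA snoRNPs modify that precursor, the small-subunit (SSU) processome folds and cleaves the part that becomes the 40S subunit, and a further set of factors assembles the 60S subunit. Because the products of Pol I were depleted from these libraries, the values below are those of the mRNA genes that encode this machinery, which RNA polymerase II transcribes.

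Gene counts per library ran from 36532207 to 57952035. PTP4A3 had 161 to 279 normalized counts in EV libraries and 22065 to 28767 in PRL3 libraries, a log2 fold change of 6.80 (edgeR adjusted p = 1.1e-08), higher in each library labelled PRL3. A normalized count is a read count scaled to the mean library by TMM, edgeR's trimmed-mean scaling. DDX21 itself had 20314, 10623 and 11390 normalized counts in EV and 10264, 10699 and 11467 in PRL3 libraries, so the groups overlapped and the log2 fold change of -0.38 ± 0.22 (SE, n = 3 per group, edgeR adjusted p = 0.173) did not pass the threshold. Without EV B1 it was -0.03 (edgeR adjusted p = 0.905). Of the lineage markers, MITF and SOX10 were read in each library, MLANA and TYR were at or near 0, and 5 markers of other cell types had at most 21 reads in any library. The summed normalized counts of the 7 melanocytic markers were 20416 to 29637 in EV and 12478 to 15822 in PRL3 libraries, most of them from SOX10, and those of 5 markers of dedifferentiated melanoma were 172756 to 197651 and 94415 to 114679, most of them from VIM. Both sums were lower in PRL3 libraries, and their part in the results was not tested. Single markers of these lists differed from the sums: MITF had 1492, 1208 and 1433 normalized counts in EV and 1714, 1795 and 1809 in PRL3 libraries (log2 fold change 0.36, edgeR adjusted p = 0.0738), and EGFR had a log2 fold change of 0.09 (edgeR adjusted p = 0.716). Reads outside annotated exons made up 33.3% ± 6.75 (SD, n = 3) of uniquely aligned reads in EV and 66.3% ± 3.18 (SD, n = 3) in PRL3 libraries. TMM factors were 0.816 to 0.894 in EV and 1.12 to 1.25 in PRL3 libraries, so the scaling touches each result below. With TMM the median log2 fold change of all genes tested was 0.11, with library size alone it was 0.60, and with all uniquely aligned reads as the library size it was -0.365.

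Of the 40 genes, 20 were lower in PRL3 than in EV libraries and 0 were higher (edgeR's quasi-likelihood test, Benjamini-Hochberg adjusted p below 0.05 over all genes tested), and 21 had an unadjusted p below 0.05, each of them with a log2 fold change below 0. The share lower was 50%, against 31.6% of protein-coding genes and 22.7% of all genes tested. Among protein-coding genes 15.2% were higher, and among all genes 20.0%. An unadjusted p below 0.05 (edgeR, either direction) was found for 7771 of 14443 protein-coding genes and 12027 of 23884 genes tested. DESeq2 also called 0 of the 40 higher, with 21 lower, against 4922 higher and 5842 lower over all genes tested. The log2 fold changes of the 40 ran from -1.63 to 0.33, with 31 below and 9 above 0. Of 14443 protein-coding genes 8283 were below and 6160 above 0, and of 23884 genes tested 10828 were below and 13056 above. The median of the 40 was -0.47, against -0.15 for protein-coding genes and 0.11 for all genes tested, but it was 0.024 with library size alone. In a bulk library, fewer cells that make an RNA and less of that RNA per cell cannot be told apart.

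Some genes had far larger differences than others. Of the 40, 9 passed the test with a log2 fold change below -1, as did 16.4% of protein-coding genes. Every PRL3 library was below every EV library in 20 of the 40, the same 20 that passed the test, against 36.7% of protein-coding genes. Every PRL3 library was above every EV library in 2 of the 40, RRS1 and POLR1A, against 22.2% of protein-coding genes. In the other 18 the groups overlapped. For a single gene with no overlap the two-sided exact permutation test gives p = 0.1, the smallest that 3 libraries against 3 allow.

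**Figure D1:**
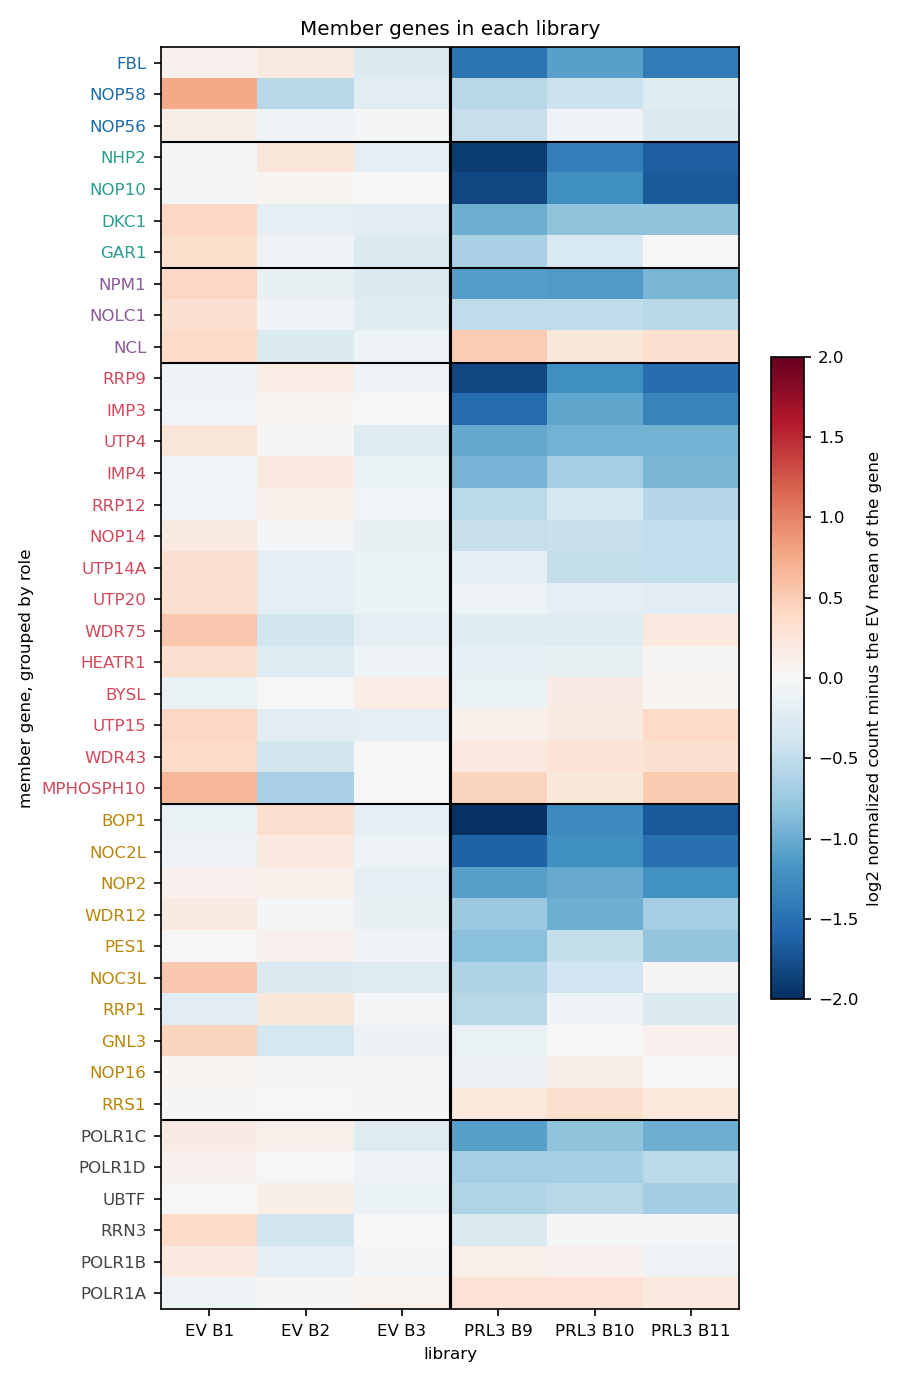
Heat map of the 40 genes (rows, grouped by role and ordered by log2 fold change) in the 3 EV and 3 PRL3 libraries (columns), coloured by the log2 normalized count (TMM scaling) minus the mean of the EV libraries for that gene. NHP2, NOP10, RRP9 and BOP1 are blue in each PRL3 library, whereas EV B1 is the highest of the 6 libraries in 22 of the 40 genes.

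The H/ACA snoRNP, which guides pseudouridylation, held the gene with the lowest log2 fold change of the 40. NHP2 (chr5:178149463-178153894), a core protein of these particles, had 15439, 18722 and 13834 normalized counts in EV B1, B2 and B3, and 4242, 6184 and 5056 in PRL3 B9, B10 and B11. No library overlapped between the groups, and the log2 fold change was -1.63 ± 0.18 (SE, edgeR adjusted p = 2.09e-05), a 3.10-fold lower mean. NOP10 (chr15:34339159-34343180), the smallest core protein, had 5575, 5799 and 5601 normalized counts in EV and 1594, 2412 and 1763 in PRL3 libraries, a log2 fold change of -1.56 ± 0.17 (SE, edgeR adjusted p = 2.12e-05). The EV libraries of NOP10 lay close together (5659 ± 122, SD, n = 3), and the PRL3 libraries were 34% of them on average. DKC1, which encodes the pseudouridine synthase dyskerin, was lower by a smaller margin (-0.89 ± 0.18, SE, edgeR adjusted p = 0.00155). GAR1, the fourth core protein, had 2174, 1623 and 1384 normalized counts in EV and 1087, 1380 and 1703 in PRL3 libraries. These overlapped, and its log2 fold change of -0.31 ± 0.21 (SE) did not pass the test (edgeR adjusted p = 0.245).

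In the box C/D snoRNP, which guides 2′-O-methylation, 1 of 3 genes passed the test. FBL (chr19:39834458-39846379), the methyltransferase fibrillarin, had 14908, 15958 and 11567 normalized counts in EV and 5110, 6636 and 5305 in PRL3 libraries. Its groups stood apart, with a log2 fold change of -1.32 ± 0.17 (SE, edgeR adjusted p = 5.98e-05). The scaffold protein gene NOP56 had 15635, 13529 and 13974 normalized counts in EV and 10417, 13615 and 11698 in PRL3 libraries, where PRL3 B10 lay inside the EV range (-0.27 ± 0.15, SE, edgeR adjusted p = 0.173). NOP58, its partner in the particle, was uneven among EV libraries, with 11801 normalized counts in B1 against 4768 and 6069 in B2 and B3. The log2 fold change of NOP58 was -0.52 ± 0.26 (SE, edgeR adjusted p = 0.129). It was -0.04 without EV B1 and -0.75 without EV B2, where it passed the test (edgeR adjusted p = 0.0263), as it also did without the low-count filter.

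Among the 3 genes for abundant nucleolar proteins that organise the compartment, 2 were lower and 1 did not pass the test. NPM1 (chr5:171387116-171411810), the nucleolar chaperone nucleophosmin, had 119435, 80526 and 74304 normalized counts in EV and 41667, 40638 and 47454 in PRL3 libraries. The lowest EV library was above the highest PRL3 library, and the log2 fold change was -1.08 ± 0.19 (SE, edgeR adjusted p = 0.000585). The annotation names 49 pseudogenes of NPM1, so its reads may be shared with near-identical copies. NCL, nucleolin, had 27783, 17618 and 20007 normalized counts in EV and 30522, 25061 and 26911 in PRL3 libraries, with EV B1 inside the PRL3 range (0.33 ± 0.18, SE, edgeR adjusted p = 0.157). NOLC1, which carries snoRNPs to the nucleolus, was lower (-0.54 ± 0.16, SE, edgeR adjusted p = 0.0161). Its adjusted p was 0.0525 to 0.0753 without EV B1, PRL3 B9 or PRL3 B11, and the call was also lost with upper-quartile scaling, protein-coding genes only and library size alone.

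Of the 14 SSU processome and 40S genes, 6 were lower and 8 did not pass the test. RRP9 (chr3:51933429-51941904), the protein specific to the U3 snoRNP that recognises the pre-rRNA, had 6074, 7112 and 6130 normalized counts in EV and 1818, 2742 and 2223 in PRL3 libraries (-1.51 ± 0.17, SE, edgeR adjusted p = 2.6e-05). IMP3, which together with IMP4 and MPHOSPH10 forms 1 module of the processome, had 8646, 9277 and 8903 normalized counts in EV and 3083, 4355 and 3551 in PRL3 libraries (-1.29 ± 0.16, SE, edgeR adjusted p = 4.19e-05). In both genes each PRL3 library was far below the lowest EV library. IMP4 was lower as well (-0.84 ± 0.15, SE, edgeR adjusted p = 0.000758). Their binding partner MPHOSPH10 had 2281, 924 and 1437 normalized counts in EV and 1969, 1701 and 2083 in PRL3 libraries. Here the EV libraries spanned the PRL3 range on both sides, and the log2 fold change was 0.31 ± 0.25 (SE, edgeR adjusted p = 0.354). Members of this module thus had log2 fold changes from -1.29 to 0.31, without a test of that difference.

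The t-UTP proteins join the pre-rRNA first and are linked to Pol I transcription. Of the 5 such genes, UTP4 was lower (-0.98 ± 0.16, SE, edgeR adjusted p = 0.000303). HEATR1, WDR75, UTP15 and WDR43 had log2 fold changes of -0.12, -0.14, 0.20 and 0.23 and did not pass the test. RRP12, an export factor of the pre-40S particle, and NOP14, an early processome protein, were each lower by 0.47 on the log2 scale (edgeR adjusted p = 0.0184 and 0.019), but their values were 0.018 and 0.03 with library size alone. The call of RRP12 was lost without EV B2, PRL3 B9 or PRL3 B11, that of NOP14 without any 1 of the 3 PRL3 libraries, and both with upper-quartile scaling and with protein-coding genes only. UTP14A, the cofactor of the helicase that releases U3, UTP20, a large scaffold, and BYSL, a pre-40S factor, had log2 fold changes of -0.39, -0.19 and 0.03 and did not pass the test.

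Of the 10 genes for 60S assembly, 5 were lower. BOP1, PES1 and WDR12 encode the PeBoW complex, which is needed for processing of the 28S precursor, and all 3 were among them. BOP1 had 12255, 16718 and 11886 normalized counts in EV and 3434, 5585 and 4177 in PRL3 libraries, a log2 fold change of -1.63 ± 0.20 (SE, edgeR adjusted p = 4.12e-05). The groups of BOP1 did not overlap, and its PRL3 mean was 32.3% of the EV mean. WDR12 and PES1 had smaller decreases of -0.80 ± 0.16 and -0.69 ± 0.15 (SE, edgeR adjusted p = 0.00127 and 0.00261). NOC2L (chr1:944203-959309), which pairs with NOC3L in early pre-60S particles, had 22615, 27935 and 22620 normalized counts in EV and 7885, 10386 and 8513 in PRL3 libraries (-1.45 ± 0.16, SE, edgeR adjusted p = 2.51e-05). NOP2 (chr12:6556863-6568691), an rRNA cytosine methyltransferase, had 10541, 10583 and 8673 normalized counts in EV and 4645, 4936 and 4250 in PRL3 libraries (-1.11 ± 0.15, SE, edgeR adjusted p = 7.81e-05). No library overlapped in either gene, and the PRL3 mean was 2.73-fold lower for NOC2L and 2.15-fold lower for NOP2.

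The other 5 genes of 60S assembly did not pass the test. RRS1, which helps to install the 5S rRNA, had 1286, 1335 and 1343 normalized counts in EV and 1532, 1648 and 1522 in PRL3 libraries. Each PRL3 library of RRS1 was above each EV library, but the log2 fold change of 0.25 ± 0.15 (SE) had an edgeR adjusted p of 0.202, and it was -0.23 with all uniquely aligned reads as the library size. NOC3L, the partner of NOC2L, had a log2 fold change of -0.36 ± 0.23 (SE, edgeR adjusted p = 0.227), and its EV libraries were spread from 2297 to 4086 normalized counts. RRP1, GNL3 (nucleostemin, a GTPase) and NOP16 had log2 fold changes of -0.30, -0.05 and 0.01.

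**Figure D2:**
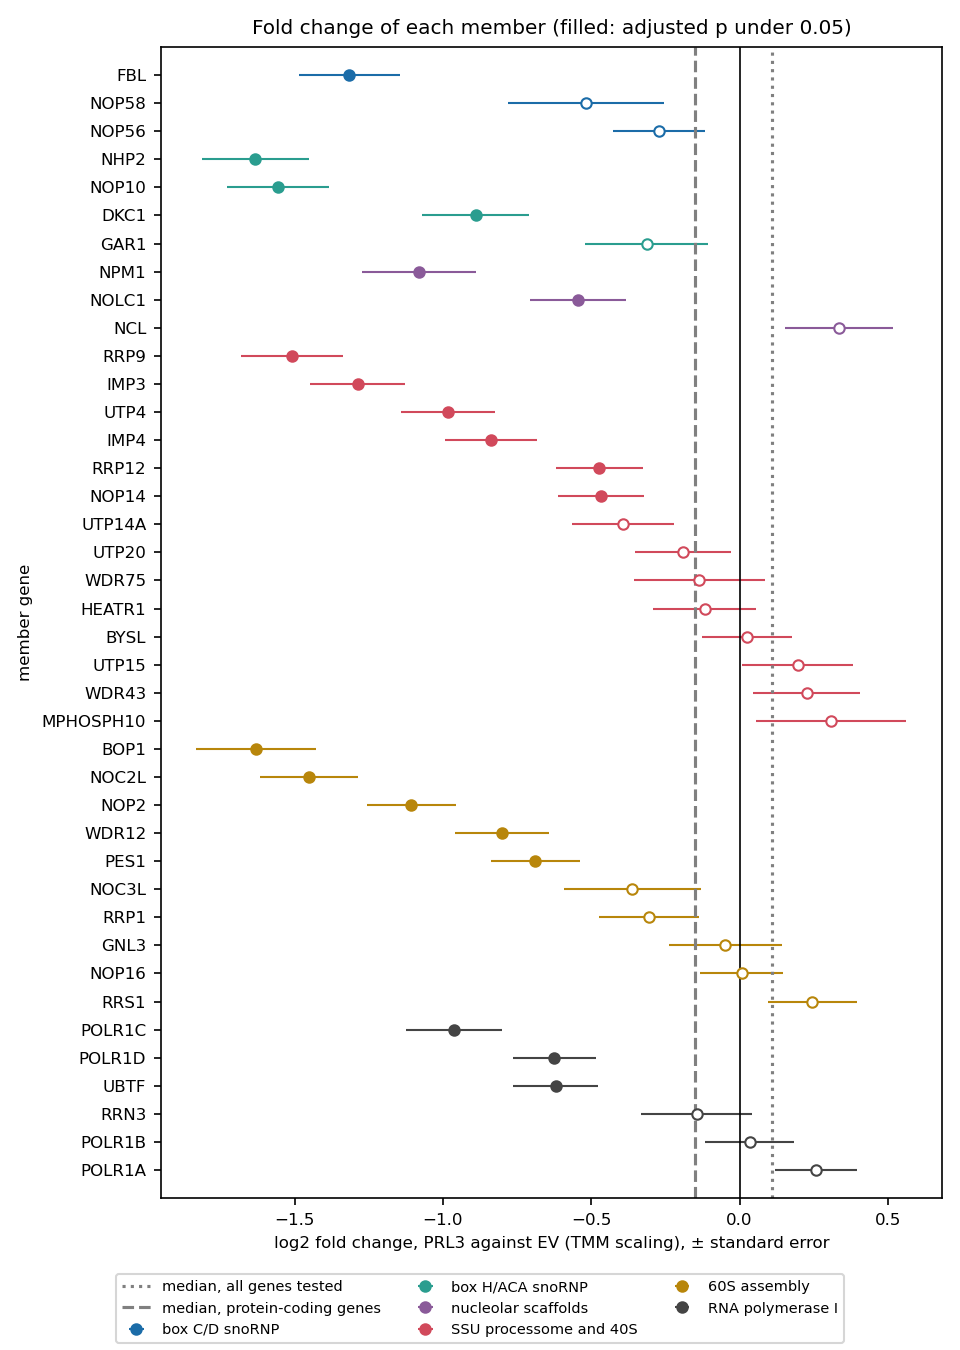
Log2 fold change of PRL3 against EV libraries (x axis, TMM scaling, bars ± SE from edgeR's quasi-likelihood fit) for the 40 genes (y axis, coloured by role), with filled points for the 20 that passed the test and vertical lines at the medians of protein-coding genes (-0.15) and of all genes tested (0.11). Each role group holds both filled and open points. NHP2 and BOP1 lie at the left end (-1.63) and NCL at the right end (0.33), while the median of the 40, -0.47 here, was 0.024 with library size alone.

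Pol I is built from 2 large catalytic subunits, a set of smaller subunits and factors that bring the enzyme to rDNA. Of the 6 Pol I genes, 3 were lower. POLR1A, the largest subunit, had 9126, 9939 and 10238 normalized counts in EV and 11925, 11916 and 11210 in PRL3 libraries. Although the PRL3 libraries were above the EV libraries, the log2 fold change of 0.26 ± 0.14 (SE) did not pass the test (edgeR adjusted p = 0.153), and it was -0.22 with all uniquely aligned reads as the library size. POLR1B, the second-largest subunit, had 5714, 4408 and 4870 normalized counts in EV and 5307, 5295 and 4746 in PRL3 libraries, which overlapped (0.03 ± 0.15, SE, edgeR adjusted p = 0.876).

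POLR1C and POLR1D, the small subunits that Pol I shares with RNA polymerase III, were both lower. POLR1C (chr6:43509702-43562419) had 4573, 4373 and 3410 normalized counts in EV and 1931, 2332 and 2075 in PRL3 libraries (-0.96 ± 0.16, SE, edgeR adjusted p = 0.000393). POLR1D (chr13:27620742-27744237) had 4774, 4473 and 4236 normalized counts in EV and 2817, 2846 and 3084 in PRL3 libraries (-0.62 ± 0.14, SE, edgeR adjusted p = 0.00305). The groups stood apart in both. Other Pol I subunit genes, read with the further list below, went both ways. POLR1E was higher (0.51, edgeR adjusted p = 0.00953) and POLR1H was lower (-0.87, edgeR adjusted p = 0.00138). POLR1F (0.12) and POLR1G (-0.06) did not pass the test. Of the factors that act at rDNA, UBTF, which binds and opens the rDNA repeats, had 10044, 10992 and 9215 normalized counts in EV and 6597, 6856 and 6240 in PRL3 libraries (-0.62 ± 0.14, SE, edgeR adjusted p = 0.00353). With library size alone the values of POLR1D and UBTF were -0.13 and -0.12 and did not pass the test (edgeR adjusted p = 0.456 and 0.454). RRN3, which links Pol I to its promoter, had 3845, 2278 and 2941 normalized counts in EV and 2422, 2897 and 2885 in PRL3 libraries, all 3 inside the EV range (-0.14 ± 0.19, SE, edgeR adjusted p = 0.571).

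The share of gene counts that fell on the 40 genes was 0.863%, 0.721% and 0.731% in EV and 0.716%, 0.686% and 0.717% in PRL3 libraries. On this measure, which uses no TMM scaling, each PRL3 library was below each EV library, but EV B2 and PRL3 B11 lay close together. Without NPM1 the shares were 0.655%, 0.581% and 0.59% in EV and 0.606%, 0.589% and 0.597% in PRL3 libraries, and the groups overlapped. Per kilobase of annotated exon, NPM1 and NHP2 had the highest EV means of the 40, at 11000 and 10839 normalized counts, and WDR12 had the lowest, at 287. EV B1 was the highest of the 6 libraries in 22 of the 40 genes (55%), against 25.4% of protein-coding genes. Without EV B1, 19 of the 40 were lower and 4 were higher, namely NCL, UTP15, WDR43 and MPHOSPH10. Over all genes tested without EV B1, 5379 were lower and 5193 were higher.

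**Figure D3:**
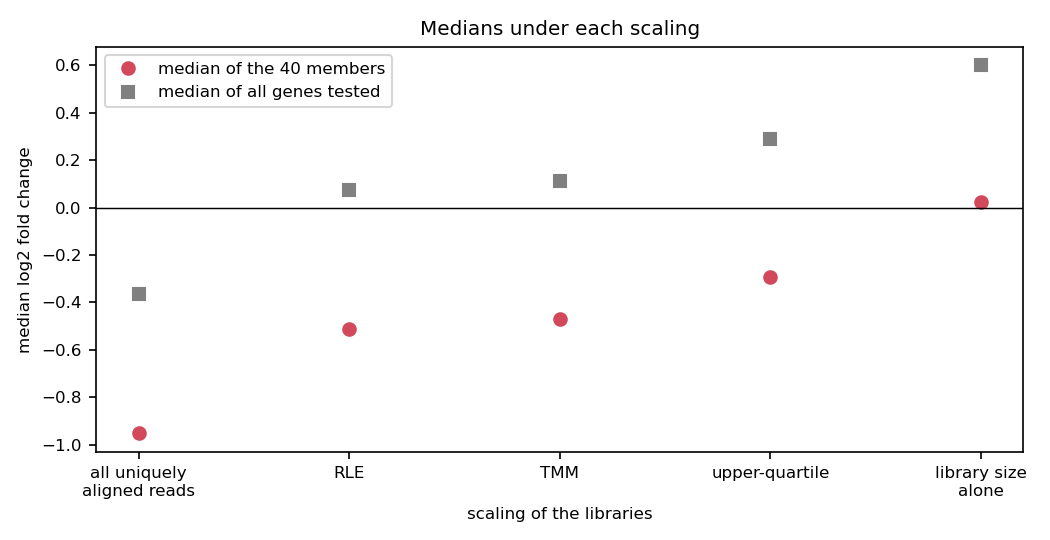
Median log2 fold change of the 40 genes (circles) and of all genes tested (squares) on the y axis under 5 scalings of the libraries on the x axis. The median of the 40 lies below that of all genes under each of them, but it runs from -0.95 with all uniquely aligned reads to 0.024 with library size alone.

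A further 106 genes of nucleolar ribosome assembly and Pol I, none of them among the 40, were read in the same fit. Of these, 36 were lower (34%), 13 were higher and 57 did not pass the test, against 31.6% lower and 15.2% higher among protein-coding genes. Their median log2 fold change was -0.21. SENP3, the SUMO protease that acts in pre-60S maturation, had 1861, 2516 and 1764 normalized counts in EV and 509, 600 and 677 in PRL3 libraries (-1.78 ± 0.19, SE, edgeR adjusted p = 1.79e-05). WDR18, which works with SENP3 in 1 complex, was lower by 1.61 on the log2 scale, as was EBNA1BP2, another 60S factor. EIF6, which keeps the 60S subunit from joining the 40S too early, was lower by 1.62.

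The 4 highest of the 106 that passed the test were DDX47, TAF1D, UTP25 and RRP8. DDX47, an RNA helicase of rRNA processing, had 358, 221 and 612 normalized counts in EV and 1299, 1245 and 1337 in PRL3 libraries (1.70 ± 0.29, SE, edgeR adjusted p = 0.000398). TAF1D, a subunit of the SL1 factor that recruits Pol I, had 10768, 5455 and 8586 normalized counts in EV and 16154, 17805 and 24002 in PRL3 libraries (1.22 ± 0.23, SE, edgeR adjusted p = 0.000899). In both genes the lowest PRL3 library was above the highest EV library. UTP25, of the SSU processome, and RRP8, an rRNA methyltransferase, had log2 fold changes of 1.05 and 0.90.

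The introns of several of these genes hold other genes, whose reads were counted apart from those of the host exons. On the strand of the host, 15 annotated genes lay wholly inside an intron, and 13 of them passed the low-count filter. Of the 13, 9 were higher in PRL3 libraries and 0 were lower, with each log2 fold change above 0 and a median of 1.92 (2.38 with library size alone and 1.45 with all uniquely aligned reads). Over all 2156 such intronic noncoding genes of protein-coding hosts, 43.6% were higher and 3.15% were lower, with a median of 1.36. Reads from the small RNA and from the unspliced host intron cannot be told apart in these counts, and the share of reads outside exons moved in the same direction (33.3% in EV and 66.3% in PRL3 libraries); its part in these values was not tested.

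Of the 13, 10 were snoRNA genes in 4 hosts, and 7 of these were higher. In NOP58, SNORD70 had 54.8, 21.7 and 54.6 normalized counts in EV and 181, 147 and 214 in PRL3 libraries (2.04 ± 0.40, SE, edgeR adjusted p = 0.00114), and SNORD11 had a log2 fold change of 1.92. SNORD11B had one of 1.67 and did not pass (edgeR adjusted p = 0.0616). In WDR43, SNORD92, SNORD53 and SNORD53B had log2 fold changes of 2.53, 1.93 and 2.05 and each passed, though near-identical copies such as SNORD53 and SNORD53B may share reads. SNORD92 had few reads, 6, 0 and 11 in EV and 26, 45 and 41 in PRL3 libraries (SE 0.93, edgeR adjusted p = 0.042). In GNL3, SNORD69 (2.10) and SNORD19C (1.38) passed and SNORD19 (1.03, edgeR adjusted p = 0.0938) did not. SNORD82 in NCL had a log2 fold change of 0.88 and did not pass (edgeR adjusted p = 0.382).

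Set against the exon reads of the host in the same library, the groups stood apart in 3 of the 4 hosts. This ratio was not taken for other hosts, so no share over all hosts can be set beside it. Of all 2156 intronic noncoding genes on the host strand, 940 were higher by the fit. Reads on the NOP58 snoRNA genes were 9.7, 7.32 and 28.2 per 1000 host exon reads in EV and 86.4, 63.2 and 82.2 in PRL3 libraries, a 5.13-fold higher mean. The ratio of means was 3.66 for WDR43 and 2.70 for GNL3, again with no overlap (two-sided exact permutation p = 0.1 for each of the 3 hosts, the smallest possible). For NCL the values overlapped, at 0.175, 1.43 and 1.32 in EV and 0.506, 1.07 and 2.35 in PRL3 libraries (exact permutation p = 0.7). This ratio needs no scaling between libraries. Of the 3 other genes on the host strand, the pseudogene RPL34P20 in RRP12 (2.47) and a Y RNA gene in UTP4 (1.69) were higher, and a Y RNA gene in RRP12 (1.26) did not pass. On the opposite strand 2 genes were tested and 0 passed, either with edgeR or at an unadjusted p of 0.05: SCX in BOP1 had a log2 fold change of -0.70 and a pseudogene in POLR1C one of 0.02.

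**Figure D4:**
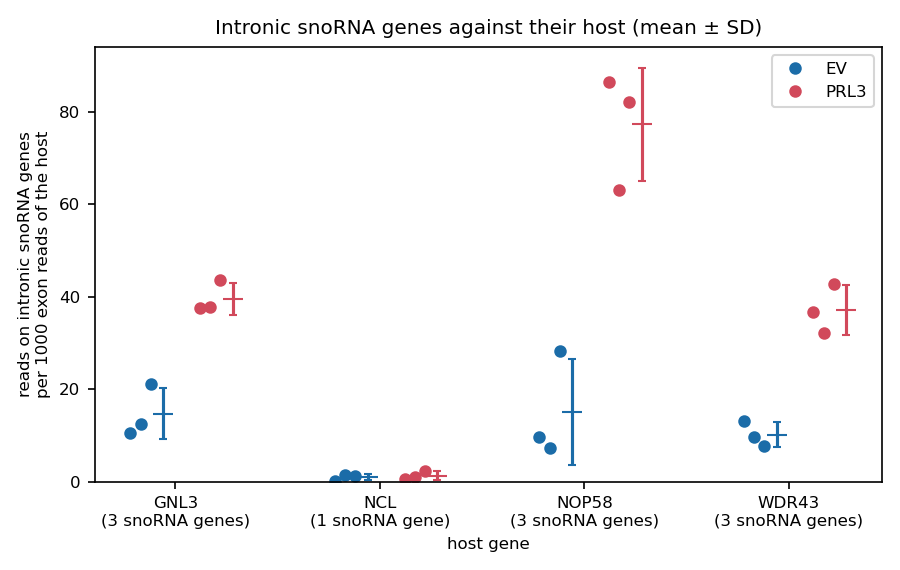
Reads on intronic snoRNA genes per 1000 exon reads of the host gene (y axis) for the 4 hosts (x axis), with 1 point per library, EV in blue and PRL3 in red, and the mean ± SD beside the points. The PRL3 points lie above the EV points for NOP58, WDR43 and GNL3 and overlap them for NCL.

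The 40 genes also differed in structure. Across genes, which are not independent replicates, the log2 fold change went with the GC content of the canonical transcript (Pearson r = -0.49, Spearman rho = -0.45, n = 40) and with its length (r = 0.46, rho = 0.41 on the log10 length). Over the 14443 protein-coding genes tested the same values were -0.33 and -0.34 for GC, and 0.29 and 0.32 for length. Properties planned beforehand had weaker values among the 40. For log10 gene length r was 0.178 and rho 0.205, for exon number 0.243 and 0.159, and for log10 exon length 0.312 and 0.225. Over protein-coding genes these were 0.279 and 0.297, 0.065 and 0.050, and 0.251 and 0.283. Of the 18 genes of the 40 with at least 50% GC, 12 were lower (median -0.65), and of the 22 below 50%, 8 were lower (median -0.34). Among protein-coding genes the medians were -0.48 and 0.06 for the same split, with 2955 of 6650 lower at 50% GC or more and 1616 of 7793 below it. BOP1, at 65.6% GC, and RRP9, at 60.7%, were at the high end of GC, while MPHOSPH10 and UTP15 had 38.7% and 38.6%. The part of GC content or length in the differences was not tested. The points share libraries and scaling, and with library size alone the median of the 40 was 0.024. RRS1 and IMP3, whose canonical transcripts have 1 exon, had log2 fold changes of 0.25 and -1.29.

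**Figure D5:**
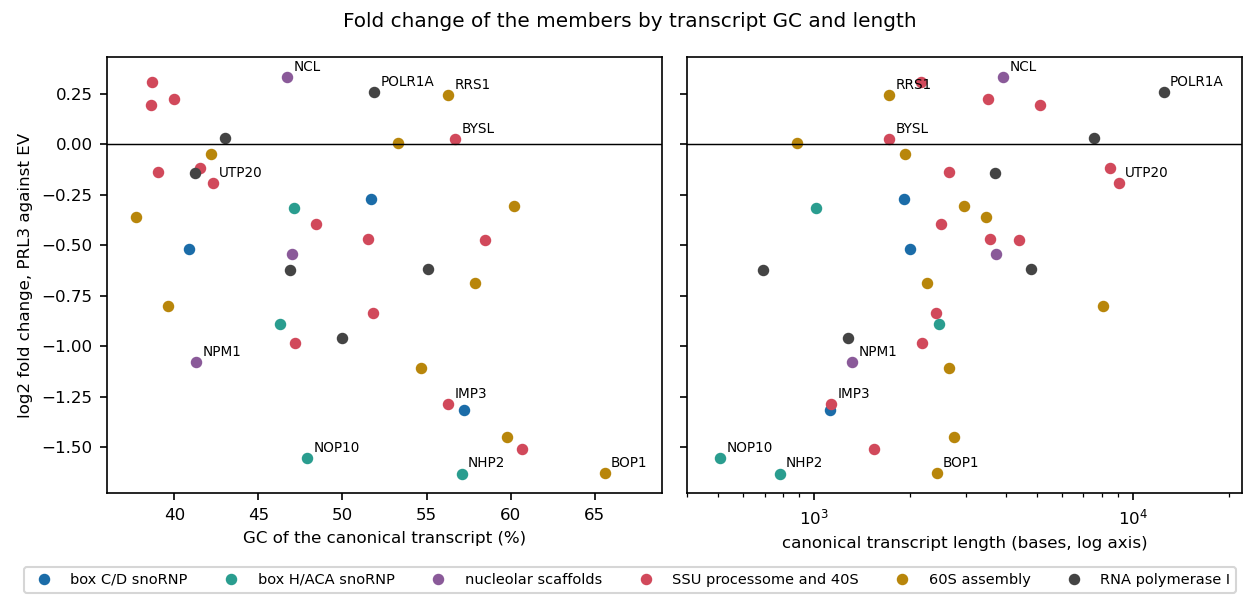
Log2 fold change of PRL3 against EV libraries (y axis, TMM scaling) for the 40 genes against the GC content of the canonical transcript in percent (left) and its length in bases on a log axis (right), coloured by role. Genes of higher GC and of shorter transcripts tend to lie lower, as NHP2 does, whereas RRS1 and BYSL lie near 0 or above it at over 56% GC.

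MYC and related factors bind the E-box, whose core is CACGTG, a palindrome that reads the same on both strands, and ribosome biogenesis genes are known targets of MYC. The letters were looked for in the 300-base windows of the RefSeq promoter table (GRCh38.p14, 250 bases before to 50 after the start of each gene), in which 34 of the 40 genes matched. NOP58, NOLC1, RRP12, MPHOSPH10, BOP1 and RRS1 did not. The motif was in 13 of the 34 windows (38.2%), in 29 of 93 windows of the further list (31.2%), and in 9.77% of windows of protein-coding genes tested and 7.43% of all 27305 windows. It was in 8 of the 17 windows of genes that were lower and in 5 of the 17 windows of genes that did not pass the test. A match is a description of these letters and not of binding.

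The 250 bases before the start of 3 genes that passed the test are shown 5′ to 3′ on the strand of the gene (the minus strand in each), NHP2 and NOP10 with the lowest log2 fold changes outside of BOP1 and NOP14 with the highest, to let the windows be compared. CACGTG is in capitals. NHP2 (chr5:178153886-178154135) holds 0, NOP10 (chr15:34343137-34343386) holds 2, and NOP14 (chr4:2963407-2963656) holds 0 in these bases.
NHP2: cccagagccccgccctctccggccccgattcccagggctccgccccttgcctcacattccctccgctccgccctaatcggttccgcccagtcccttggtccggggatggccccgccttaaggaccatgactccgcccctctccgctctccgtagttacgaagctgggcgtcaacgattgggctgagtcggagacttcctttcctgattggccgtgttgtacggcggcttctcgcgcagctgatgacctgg
NOP10: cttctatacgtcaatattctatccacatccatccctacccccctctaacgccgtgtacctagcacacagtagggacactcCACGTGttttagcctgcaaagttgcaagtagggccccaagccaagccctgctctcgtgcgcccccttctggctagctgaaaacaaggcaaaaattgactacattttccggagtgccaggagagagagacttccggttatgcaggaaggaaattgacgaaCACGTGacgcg
NOP14: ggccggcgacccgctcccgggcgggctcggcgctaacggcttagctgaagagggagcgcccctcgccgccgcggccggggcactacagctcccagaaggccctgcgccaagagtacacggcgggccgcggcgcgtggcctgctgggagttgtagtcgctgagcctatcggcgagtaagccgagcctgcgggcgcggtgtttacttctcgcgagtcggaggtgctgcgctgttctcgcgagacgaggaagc

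The E-boxes themselves are printed with 10 bases on either side, for the 11 genes whose matches lie far enough inside the window, since they are what genes such as NOP10 and UTP20 share. FBL, IMP4, NOP10, NOP14, PES1, RRP9 and UTP4 were lower and BYSL, NOC3L, UTP20 and WDR43 did not pass the test. Of these 13 matches, the first of IMP4 lies at -203 and the first of NOP10 at -170 relative to the start site, and the other 11 lie within 29 bases of it. The motif is in capitals, 5′ to 3′ on the strand of the gene.
BYSL (+ strand, chr6:41921517-41921542): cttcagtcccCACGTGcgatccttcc
FBL (- strand, chr19:39846358-39846383): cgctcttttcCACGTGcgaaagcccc
IMP4 (+ strand, chr2:130342684-130342709): ggtcctaagtCACGTGtgacattctg
IMP4 (+ strand, chr2:130342902-130342927): ctcccggaccCACGTGgaagcggcac
NOC3L (- strand, chr10:94362905-94362930): gggacttcggCACGTGtgtcattccc
NOP10 (- strand, chr15:34343291-34343316): agggacactcCACGTGttttagcctg
NOP10 (- strand, chr15:34343132-34343157): aattgacgaaCACGTGacgcggtcgg
NOP14 (- strand, chr4:2963376-2963401): cgcggcccggCACGTGtcttagggta
PES1 (- strand, chr22:30591882-30591907): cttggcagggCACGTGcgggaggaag
RRP9 (- strand, chr3:51941894-51941919): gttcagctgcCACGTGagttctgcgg
UTP20 (+ strand, chr12:101280085-101280110): tttttccgtcCACGTGacccactcag
UTP4 (+ strand, chr16:69132623-69132648): agcgcgcgcgCACGTGgggccggggc
WDR43 (+ strand, chr2:28894660-28894685): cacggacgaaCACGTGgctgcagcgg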

How the data were processed

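The measurements were 4sU-seq of 3 EV and 3 PRL3 libraries from A375 cells. The authors aligned reads to GRCh38 with STAR 2.5.1b and counted them with HTSeq 0.6.1 on exons of Ensembl release 91, reverse strand; FastQC 0.11.3 was also named in the submitters' notes. The deposited values are raw counts per gene, without normalization, and depth was 36532207 to 57952035 counts per library. Rows for reads outside genes were not tested. They stayed out of library sizes except in the setting with all uniquely aligned reads, which added reads on no exon and ambiguous reads.

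Symbols, biotypes, coordinates, canonical transcripts and intronic genes were taken from GENCODE 44, on the same build but of a later release. The PRL3 group was tested against EV with edgeR 4.0.16 under R 4.3.3 (TMM, filterByExpr, quasi-likelihood test, Benjamini-Hochberg adjustment over 23884 genes, threshold 0.05). The script was tested on simulated counts. Single values were compared by two-sided exact permutation. No 2 libraries agreed within sampling noise. Alternatives were scaling by RLE, by the upper quartile or by library size alone, all uniquely aligned reads as library size, DESeq2 1.42.0, limma-voom (limma 3.58.1), no filter, at least 10 counts in every library, protein-coding genes only, an adjusted p of 0.01 and leaving out each library.

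The genes and lists were chosen with earlier results of these data known. Values in every library are given for the Pol I genes and, in each other role group, for the lowest and highest log2 fold change and those past the threshold by at least 1 on the log2 scale. Of the further list of 106 genes, the 4 lowest and 4 highest past the threshold are named. Its Pol I subunits POLR1E, POLR1F, POLR1G and POLR1H are named as well. Of the intronic genes, all that were tested are named. The promoters chosen were those of the 2 lowest and 2 highest past the threshold, leaving out the chromosome of BOP1. RRP12, one of the 2 highest, did not match the promoter table, so 3 are shown. GC content, transcript length and the E-box windows were added after values were seen. Of the 40 genes, 10 have named pseudogenes and 7 share exon bases with small genes on the same strand, so that reads may be lost or shared.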

Additional observations from a re-analysis of the deposited data

Results flagged for a closer look

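Uniquely aligned reads that HTSeq placed on no exon, which the main comparison of the 40 genes did not use, were 66.3% ± 3.18 (SD, n = 3) of the uniquely aligned reads of PRL3 libraries. In EV libraries the share was 33.3% ± 6.75 (SD, n = 3). It was flagged because this signal outside the gene counts was above its level in the control libraries. The ranges were 62.8% to 69.1% and 28.7% to 41.1% and did not overlap. Which genes these reads came from was not analysed here.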

How the results depend on the processing

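Of the 20 genes that were lower, 11 were lower in each of the 16 alternatives (FBL, NHP2, NOP10, NPM1, RRP9, UTP4, IMP3, NOP2, BOP1, NOC2L and POLR1C), and 17 in each alternative other than library size alone, where the calls of DKC1, IMP4, PES1, WDR12, POLR1D and UBTF were lost. The cause of the changes below was not tested, nor was the effect of depth. With library size alone, 11 of the 40 were lower, 9 were higher and their median was 0.024. Over all genes tested, 3078 were lower and 9514 were higher. The counts of the further list were 16 lower and 47 higher, and the median of intronic genes was 2.38. In that setting log2 fold changes turned positive for NOP56 (0.22), GAR1 (0.18), NOP14 (0.03), RRP12 (0.018), UTP14A (0.11), UTP20 (0.31), HEATR1 (0.38), WDR75 (0.36), RRP1 (0.18), GNL3 (0.45), NOC3L (0.14), RRN3 (0.35) and DDX21 (0.12). With all uniquely aligned reads, 32 were lower with a median of -0.95, against 8473 lower and 1952 higher over all genes tested. The further list had 61 lower and 4 higher, and the median of intronic genes was 1.45. Values turned negative for NCL (-0.15), UTP15 (-0.29), WDR43 (-0.25), MPHOSPH10 (-0.17), BYSL (-0.45), NOP16 (-0.47), RRS1 (-0.23), POLR1A (-0.22) and POLR1B (-0.45). Upper-quartile scaling gave 3 higher, a median of -0.29 and 27 higher in the further list, against 6353 higher over all genes tested. It put HEATR1 at 0.069, WDR75 at 0.056, GNL3 at 0.14 and RRN3 at 0.042. Protein-coding genes only gave 3 higher and 28 higher in the further list, against 3445 higher over the genes of that setting. The median was -0.29, below that of all genes by 0.32 (-0.32 against -0.58). HEATR1 was at 0.066, WDR75 at 0.05, GNL3 at 0.14 and RRN3 at 0.039. There was no value for intronic genes, which that setting leaves out. Without a filter the median minus that of all genes was -0.70. RLE scaling and DESeq2 turned BYSL (-0.011), NOP16 (-0.03) and POLR1B (-0.002) negative. Leaving out each library gave 0 to 4 of the 40 higher and 10 to 24 of the further list higher. The upper ends came without EV B1, where 5193 of all genes tested were higher. Leaving out libraries moved HEATR1 from -0.23 to 0.074, WDR75 from -0.29 to 0.19, BYSL from -0.043 to 0.11, NOP16 from -0.041 to 0.073, GNL3 from -0.19 to 0.22, POLR1B from -0.034 to 0.14 and RRN3 from -0.30 to 0.07, none of which passed the test with all libraries. It also moved NOP58 from -0.75 to -0.04 and DDX21 from -0.54 to -0.03, the latter ends without EV B1, and ended the calls of NOLC1, NOP14 and RRP12 for 3 libraries each. No paired analysis was possible because EV and PRL3 libraries have no replicate number in common.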

Other observations

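Within single libraries, read ratios between genes of 1 complex need no scaling between libraries; the pairs were chosen after their values were seen, and no test was run on them. Reads on POLR1C per read on POLR1A were 0.501, 0.44 and 0.333 in EV B1, B2 and B3, and 0.162, 0.196 and 0.185 in PRL3 B9, B10 and B11. For POLR1D per POLR1A they were 0.523, 0.45 and 0.414 in EV and 0.236, 0.239 and 0.275 in PRL3 libraries. The groups did not overlap for either pair of Pol I subunits. The choice of pairs favours such separation, and other pairs were not taken, so no share can be set beside it. In the processome, IMP3 reads per MPHOSPH10 read were 3.79, 10 and 6.2 in EV and 1.57, 2.56 and 1.71 in PRL3 libraries. In the H/ACA snoRNP, NHP2 reads per GAR1 read were 7.1, 11.5 and 10 in EV and 3.9, 4.48 and 2.97 in PRL3 libraries. These ratios describe unequal change in the pairs picked and do not show that either gene of a pair stayed the same.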
